A study of Mus musculus with 12 samples.

Results

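The genes described here encode the machinery that releases transmitter from synaptic vesicles in the mouse retina. Its 37 members were chosen by symbol, as SNARE proteins, complexins, synaptotagmins, synapsins, vesicle membrane proteins, Rab3 GTPases, active zone proteins, the SNARE recycling factors and beta-synuclein. All 37 matched an identifier among the 54532 of the deposited tables, and all 37 were among the 18299 genes tested, so none was lost to the filter on low counts. The 12 libraries were made from polyadenylated retinal RNA of wild type C57BL/6 mice, aged 13 weeks by their labels and female by the study's methods, with 3 libraries in each of 4 groups. SHAM was the sham control. MOG mice were immunized with MOG35-55 peptide, an autoantigen of myelin, in complete Freund's adjuvant together with pertussis toxin, which gives experimental autoimmune encephalomyelitis with optic neuritis. GB20 and GV16 mice carried the same immunization and were also needled under xylazine and ketamine at the acupoint GB20 or at the control acupoint GV16. Whether SHAM mice received adjuvant, toxin or anaesthesia, or unneedled MOG mice anaesthesia, is not given in the sources used here. Needling and its anaesthesia therefore cannot be told apart where a needled group is compared with MOG. The study's methods describe groups of 2 or 3 mice and 3 repeats of the experiment, without saying whether a library pools the mice of 1 repeat, so p-values measure the spread between these libraries. The whole retina was used as the sample, so fewer cells of a type and less RNA per cell cannot be told apart.

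Release begins when a vesicle carrying a VAMP protein docks at the active zone, where VAMP assembles with syntaxin and SNAP25 on the plasma membrane into the SNARE complex. Complexin holds the assembled complex, a calcium-binding synaptotagmin triggers fusion, and NSF with the SNAP proteins takes the spent complex apart. Photoreceptors and bipolar cells release tonically from ribbon synapses, which are known for syntaxin 3 and complexins 3 and 4 and for lacking synapsins. Conventional synapses, such as those of amacrine cells, use complexins 1 and 2. Ganglion cells send their output to the brain through their axons.

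The level of each member was first compared per length, as FPKM (fragments per kilobase of exon, scaled to library size). In SHAM, Cplx4, the complexin of photoreceptors, had the highest mean at 311 ± 11.7 FPKM (SD, n = 3). Vamp2, the widespread vesicle SNARE, followed at 201 ± 13.6 FPKM, with every library below every Cplx4 library. Snap25, the plasma membrane SNARE, stood at 159 ± 4.82 FPKM and did not separate from Sncb, beta-synuclein, at 159 ± 16.04 FPKM.

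Stx3, the syntaxin of ribbon synapses, was measured at 131 ± 2.56 FPKM, against 3.11 ± 0.231 FPKM for Stx1a, the syntaxin of conventional synapses. The calcium sensor Syt1 stood at 121 ± 8.89 FPKM and its relative Syt2 at 4.29 ± 0.445 FPKM. These pairs set the ribbon syntaxin and the widespread sensor far above their relatives in whole retina. Cplx3 was measured at 106 ± 10.1 FPKM, Cplx1 at 49.5 ± 3.44 FPKM and Cplx2 at 43.7 ± 4.42 FPKM, and the libraries of Cplx1 and Cplx2 overlapped. Vamp1, at 10.8 ± 0.437 FPKM, gave 5.09% of the summed Vamp1 and Vamp2 signal. The lowest member was Syn3, a synapsin, at 1.01 ± 0.276 FPKM.

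**Figure D1:**
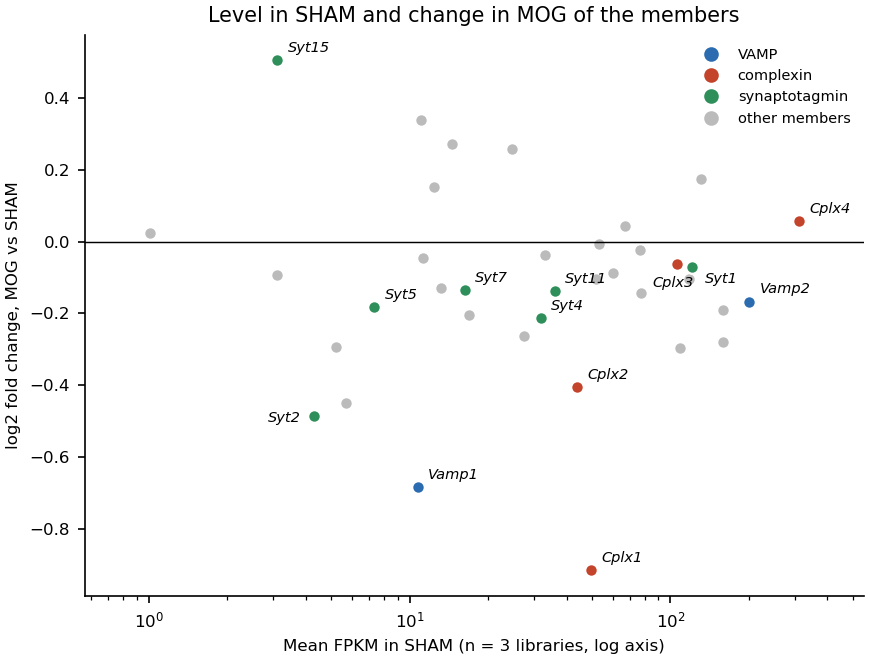
Mean FPKM of each of the 37 members in SHAM (n = 3 libraries, log axis) against its log2 fold change in MOG vs SHAM. VAMP, complexin and synaptotagmin genes are coloured and named. Within each of these families the member with the highest level (Vamp2, Cplx4, Syt1) sat between -0.17 and 0.06, and the members that fell (Vamp1, Cplx1, Cplx2, Syt2) had lower levels.

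MOG was compared with SHAM to ask how optic neuritis after immunization bears on the release genes. A total of 4 members fell: the complexins Cplx1 and Cplx2, the vesicle SNARE Vamp1 and the calcium sensor Syt2. A single member rose, the atypical synaptotagmin Syt15. These 5 of 37 passed at an adjusted p under 0.05 (quasi-likelihood test of edgeR, Benjamini-Hochberg over all genes tested), as did 1.34% of all genes. The background was 0.771% for lower and 0.568% for higher genes.

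Values below are CPM, counts scaled to a common library size, for replicates 1, 2 and 3 in that order, and fold changes are log2. Cplx1, a clamp and facilitator of fusion, was measured at 115, 112 and 101 CPM in SHAM and at 65.0, 53.6 and 55.2 CPM in MOG. In the needled groups Cplx1 was measured at 55.2, 71.4 and 63.3 CPM in GB20 and at 70.5, 52.5 and 55.8 CPM in GV16. Every library of the 3 immunized groups lay below every SHAM library. The change in MOG was -0.91 (SE 0.11, adjusted p = 0.00014), a level lower by 47.0%, and it ranged from -1.01 to -0.86 when single libraries were left out.

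Vamp1, a vesicle SNARE with a narrower distribution than Vamp2, was measured at 111, 115 and 106 CPM in SHAM. It was measured at 65.3, 67.8 and 73.3 CPM in MOG, at 73.4, 77.8 and 74.9 CPM in GB20 and at 75.1, 69.8 and 67.5 CPM in GV16. The 9 libraries of immunized mice lay together and none reached a SHAM library. Vamp1 had the smallest p of the members, with its log2 value at -0.68 (SE 0.07, adjusted p = 4.63e-06) in MOG, lower by 37.7%. Leaving out single libraries gave -0.73 to -0.65.

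Cplx2, the close relative of Cplx1, was measured at 242, 199.9 and 210 CPM in SHAM and at 180, 156 and 155 CPM in MOG. The MOG libraries all lay below the SHAM libraries, and the log2 difference was -0.41 (SE 0.09, adjusted p = 0.019). In GB20 it was measured at 179, 192 and 186 CPM, all below SHAM, and in GV16 at 213, 174 and 171 CPM, where replicate 1 lay within the SHAM range. The call in MOG was lost without SHAM replicate 1 (-0.32, adjusted p = 0.158), MOG replicate 2 (-0.37, adjusted p = 0.167) or MOG replicate 3 (-0.36, adjusted p = 0.171).

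Syt2, a fast calcium sensor found in some bipolar cells of the retina, was measured at 36.7, 29.9 and 32.6 CPM in SHAM. It was measured at 28.3, 20.9 and 21.6 CPM in MOG, 20.04, 22.01 and 24.8 CPM in GB20 and 29.5, 25.5 and 23.5 CPM in GV16. All immunized libraries lay below the lowest SHAM library, although GV16 replicate 1 came close to it. The change in MOG was -0.48 (SE 0.12, adjusted p = 0.0412). This call was the least stable of the 5. It was lost without SHAM replicate 1 (-0.40, adjusted p = 0.212), SHAM replicate 3 (-0.50, adjusted p = 0.0509), MOG replicate 2 (-0.40, adjusted p = 0.324), MOG replicate 3 (-0.42, adjusted p = 0.279), GB20 replicate 2 (-0.49, adjusted p = 0.0502) or GV16 replicate 2 (-0.49, adjusted p = 0.0531).

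Syt15, which lacks the calcium-binding residues of the release sensors, was measured at 17.7, 16.1 and 14.8 CPM in SHAM and at 25.9, 20.5 and 22.4 CPM in MOG. In GB20 it was measured at 14.6, 17.1 and 15.0 CPM and in GV16 at 15.7, 14.3 and 18.8 CPM. The 3 MOG libraries were the highest of the 12, and SHAM, GB20 and GV16 overlapped. The change in MOG was 0.50 (SE 0.12, adjusted p = 0.0306). It was lost without SHAM replicate 3 (0.44, adjusted p = 0.0745), MOG replicate 1 (0.41, adjusted p = 0.137) or MOG replicate 3 (0.53, adjusted p = 0.102).

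**Figure D2:**
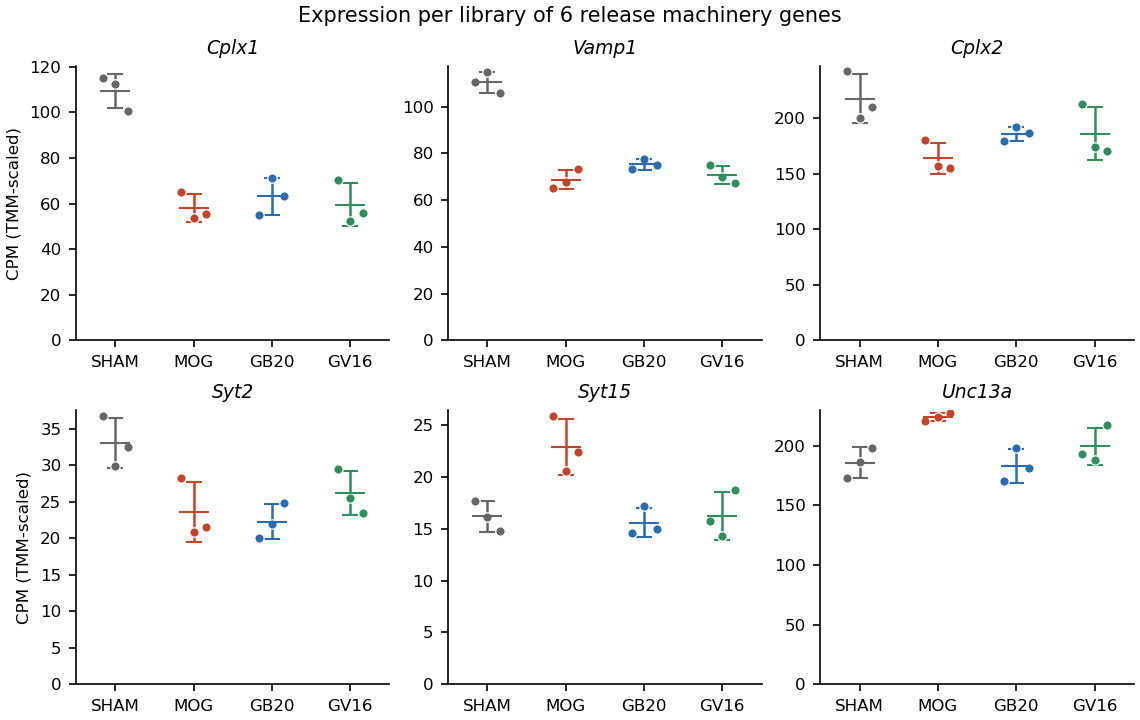
CPM in each library for the 5 members called in MOG vs SHAM and for Unc13a, which had the smallest adjusted p of the members not called in GB20 vs MOG. Points are libraries and horizontal bars are group means (n = 3). Cplx1 and Vamp1 were lower in all 9 libraries of immunized mice, and Syt15 was higher in MOG alone.

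Sequence before the start sites is shown for Cplx1, Vamp1 and Syt2 of the members that fell, to place their promoters beside their values. The windows are from RefSeq on GRCm38.p6, the 120 bases before the start or the part of them outside annotated exons of the gene, 5′ to 3′ on the gene's strand. Capitals mark the GC box (GGGCGG or its reverse complement CCGCCC), the site bound by Sp1 and its relatives. For Cplx1 the window is chr5:108550028-108550147 on the minus strand, 67 bases of which lie in an exon of Gm43364. For Vamp1 it is the 90 bases chr6:125215461-125215550 on the plus strand, which end 30 bases before the RefSeq start. Syt2 has 2 starts on the plus strand, with windows chr1:134646492-134646611, overlapping an exon of Gm26783 by 29 bases, and chr1:134709180-134709299.
Cplx1: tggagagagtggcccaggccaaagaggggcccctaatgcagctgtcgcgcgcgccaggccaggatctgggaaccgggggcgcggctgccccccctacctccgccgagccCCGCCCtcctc
Vamp1: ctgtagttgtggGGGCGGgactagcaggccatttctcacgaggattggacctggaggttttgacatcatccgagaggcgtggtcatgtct
Syt2 first start: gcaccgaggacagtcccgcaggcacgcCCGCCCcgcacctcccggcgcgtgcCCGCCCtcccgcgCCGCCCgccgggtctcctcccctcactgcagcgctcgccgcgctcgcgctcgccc
Syt2 second start: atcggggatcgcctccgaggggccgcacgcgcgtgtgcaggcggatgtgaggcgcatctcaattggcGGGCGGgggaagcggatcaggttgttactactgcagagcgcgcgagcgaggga
Cplx1 and Vamp1 held 1 GC box each in these windows, and the Syt2 windows held 3 and 1. Over the 250 bases before each start, the GC box was found in 60% of the 35 windows of 28 matched members, against 53.8% of 15660 windows of tested genes and 32.7% of all 32851 windows. The cAMP response element half-site (TGACG or CGTCA) was found in 20% of member windows and 24.6% of those of tested genes. The photoreceptor core motif bound by CRX (TAATCC or GGATTA) was found in 8.57% and 5.45%, in the members Sv2b and Syp. The window of Cplx2, the other member that fell, held 0 GC boxes in its 120 bases and 0 in its 250. Its sequence is not printed, because its RefSeq start lies far before the gene model used for its position. A GC box was therefore not found before every member that fell.

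The genes themselves lie at chr5:108518554-108550024 (Cplx1, minus strand), chr6:125215551-125245964 (Vamp1, plus), chr13:54371349-54383917 (Cplx2, plus), chr1:134646677-134762593 (Syt2, plus) and chr14:34219595-34230420 (Syt15, plus) in GENCODE vM21 on GRCm38. No exon of these 5 genes overlaps another annotated gene. Counts of the members summed their exons, so a change of isoform cannot be read from them.

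The remaining 32 members did not pass the test in MOG vs SHAM, with log2 fold changes between -0.45 (Sv2c) and 0.34 (Pclo) and a median SE of 0.08. Over all 37, 28 log2 fold changes were negative and 9 positive, with a median of -0.11 against -0.0023 for all genes tested, of which 50.5% were negative. At an unadjusted p under 0.05 there were 16 members, 12 lower and 4 higher, where 13% of all genes reached that level. Groups of 3 libraries did not overlap for 14 members, 11 lower and 3 higher, against 16.2% of all genes, 8.34% lower and 7.87% higher.

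**Figure D3:**
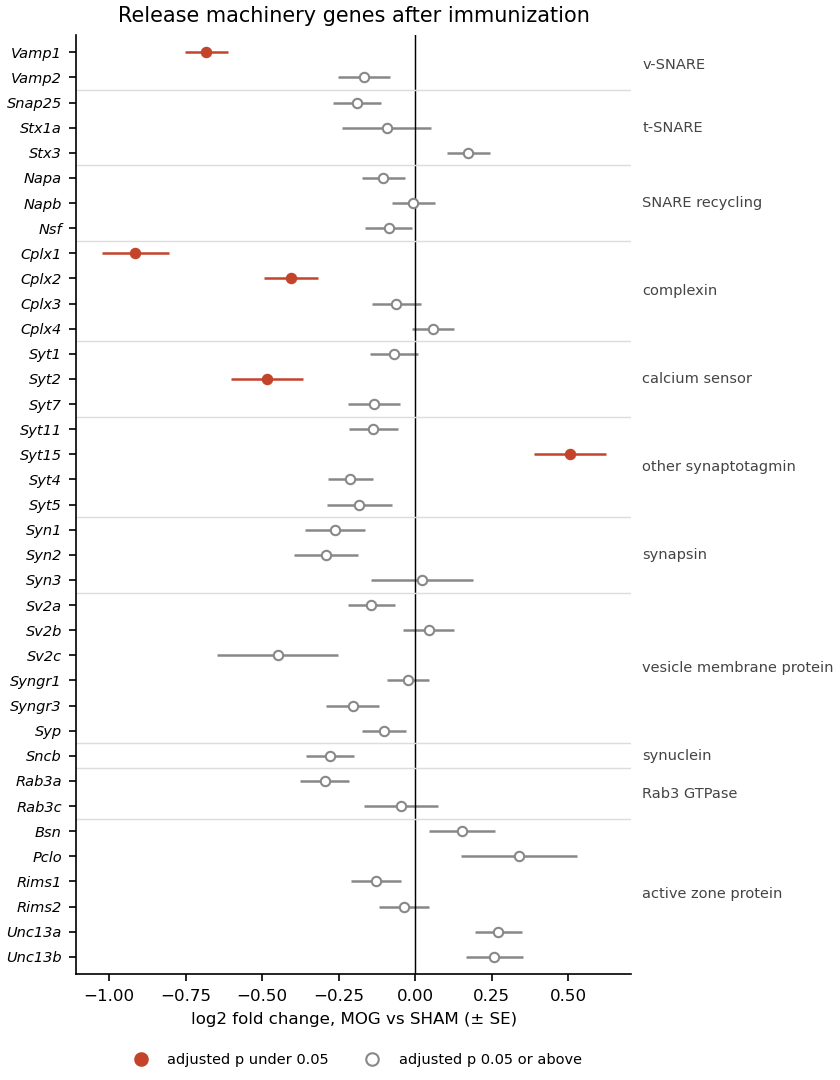
Log2 fold change of the 37 members in MOG vs SHAM, ordered by role, with the standard error as a bar (3 libraries a group). Filled points have an adjusted p under 0.05. Cplx1, Vamp1, Syt2 and Cplx2 lie to the left, Syt15 lies to the right, and the active zone genes Pclo, Unc13a, Unc13b and Bsn are on the positive side without passing the test.

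Among the SNAREs, Vamp2 was measured between 713 and 808 CPM in SHAM and between 651 and 748 CPM in MOG, with a log2 fold change of -0.17 (adjusted p = 0.408). The VAMP libraries therefore separated in Vamp1 and overlapped in Vamp2. Snap25 had a log2 fold change of -0.19 (adjusted p = 0.299) and Stx1a of -0.09 (adjusted p = 0.824). Stx3 was at 0.17 (adjusted p = 0.274), with MOG libraries at 814 to 892 CPM all above SHAM at 744 to 771 CPM. The recycling ATPase Nsf and its adaptors Napa and Napb lay between -0.11 and -0.0063, with a smallest adjusted p of 0.542.

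The complexins of ribbon synapses lay close to 0. Cplx3 stood at -0.06 (SE 0.08, adjusted p = 0.782) and Cplx4 at 0.06 (SE 0.07, adjusted p = 0.764), and both overlapped between groups. Cplx1 and Cplx2 passed the test and Cplx3 and Cplx4 did not, and the difference between them was not tested. Which cells made Cplx1 and Cplx2 cannot be told from whole retina. Cplx1 gave 9.70% of the summed complexin FPKM in SHAM and 5.41% in MOG, while Cplx4 gave 60.9% and 66.8%. Summed over the family, complexin FPKM was 510 ± 25.3 in SHAM against 485 ± 25.6 in MOG, with overlapping ranges.

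Ratios within a library set each member that fell beside a relative. They rest on the calls already given, since their numerators were chosen for those calls, and they are given as a description. Cplx1 stood at 107% to 127% of Cplx2 FPKM in SHAM, at 77.2% to 81.4% in MOG, at 69.3% to 83.8% in GB20 and at 67.8% to 74.5% in GV16. Cplx1 over Cplx4 was 15.2% to 16.4% in SHAM and 7.63% to 8.73% in MOG. Vamp1 over Vamp2 was 5.13% to 5.56% in SHAM and 3.27% to 4.13% in MOG, and Syt2 over Syt1 was 3.41% to 3.70% and 2.45% to 3.00%. Each of these 4 ratios was lower in all libraries of each immunized group than in any SHAM library.

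The other synaptotagmins showed no further call. Syt1, the main sensor, stood at -0.07 on the log2 scale (SE 0.08, adjusted p = 0.744), and Syt7, the sensor of slow release, one of -0.14 (adjusted p = 0.514). Syt4, Syt5 and Syt11 lay between -0.21 and -0.14, with a smallest adjusted p of 0.207 for Syt4. Exons of Syt4 share 14.5% of their length with Gm26658 on the other strand and those of Syt7 share 5.13% with Gm26859, and the library kit as named keeps no strand, so their reads cannot be told apart there.

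The synapsins, which tether vesicles in the reserve pool, were measured at -0.26 for Syn1 (adjusted p = 0.254), -0.29 for Syn2 (adjusted p = 0.222) and 0.02 for Syn3 (adjusted p = 0.97). Syn2 libraries did not overlap, at 33.4 to 38.8 CPM in SHAM and 25.3 to 32.7 CPM in MOG. Syn3 shares 14.1% of its exon length with Timp3 on the other strand. None of the 6 vesicle membrane proteins passed the test, which took no account of the replicate numbers. Sv2c, an SV2 glycoprotein, had the most negative value at -0.45 with an SE of 0.20 (adjusted p = 0.374). Its SHAM libraries were spread at 66.8, 41.1 and 60.0 CPM, and the lowest overlapped MOG at 38.2 to 46.1 CPM. Sv2a and Sv2b lay at -0.14 and 0.04, Syngr1 and Syngr3 at -0.02 and -0.20, and synaptophysin (Syp), which shares 16.8% of its exon length with Gm14703, at -0.10.

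Rab3a, the GTPase that brings vesicles to the active zone, was nearest to the threshold. It was measured at 252, 248 and 230 CPM in SHAM and at 218, 189 and 188 CPM in MOG. The groups did not overlap, and MOG was lower by a log2 value of -0.30 (SE 0.08, adjusted p = 0.0697). Its relative Rab3c stood at -0.05 (adjusted p = 0.906). Sncb had one of -0.28 (SE 0.08, adjusted p = 0.0917), with SHAM at 308 to 377 CPM above MOG at 264 to 300 CPM.

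Of the 6 active zone proteins 4 had positive and 2 negative values, and none passed the test. Unc13a, which encodes the priming factor Munc13-1, was measured at 173, 186 and 199 CPM in SHAM, 221, 224 and 227 CPM in MOG, 170, 198 and 181 CPM in GB20 and 193, 189 and 217 CPM in GV16. The MOG libraries were the highest of the 12, and MOG vs SHAM was at 0.27 (SE 0.08, adjusted p = 0.0912). Unc13b was at 0.26 (adjusted p = 0.224), Bsn, which anchors the ribbon, at 0.15 (adjusted p = 0.569) and its relative Pclo at 0.34 (adjusted p = 0.496). The scaffolds Rims1 and Rims2 were at -0.13 and -0.04. Unc13a shares 3.92% of its exon length with Colgalt1 and Pclo 4.12% with 2 other genes.

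The libraries also differed in how strongly long transcripts were counted. The median log2 deviation of genes over 8 kb minus that of genes under 2 kb was -0.28 in SHAM replicate 2, the lowest of the 12 libraries, and -0.12 and -0.11 in GB20 replicates 1 and 2. It was 0.11 in SHAM replicate 3 and between 0.05 and 0.08 in MOG. There were 12 members over 8 kb, Unc13a, Unc13b, Bsn and Pclo among them. SHAM replicate 2 was the lowest SHAM library for Bsn (158 CPM), Pclo (173 CPM) and Unc13b (496 CPM), but not for Unc13a. With a trend on exonic length removed, Unc13b fell to 0.10, Pclo to 0.21, Bsn to 0.05 and Unc13a to 0.19 on the log2 scale in MOG vs SHAM. Under the same correction Cplx1 was at -0.85 (adjusted p = 0.00119), Vamp1 at -0.74 (adjusted p = 7.74e-07), Cplx2 at -0.39 (adjusted p = 0.0134), Syt2 at -0.51 (adjusted p = 0.0138) and Syt15 at 0.51 (adjusted p = 0.013).

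**Figure D4:**
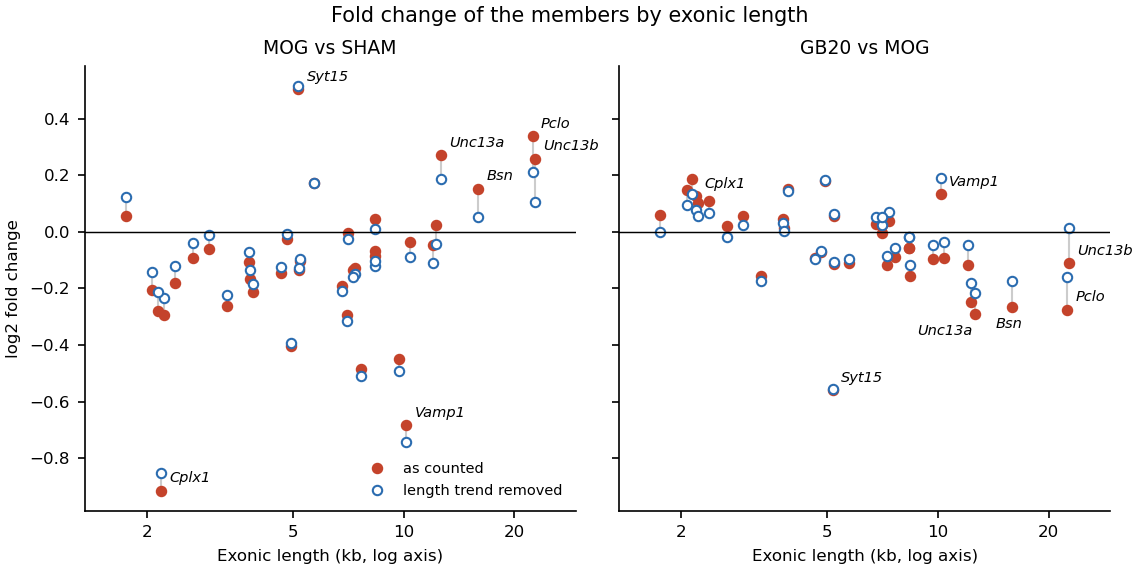
Log2 fold change of the 37 members against exonic length (kb, log axis) in MOG vs SHAM and in GB20 vs MOG. Filled points are values as counted, and open points have the trend of all genes on length removed. The longest members (Pclo, Unc13b, Bsn, Unc13a) moved toward 0, and Cplx1, Vamp1 and Syt15 moved by less than 0.07 in MOG vs SHAM.

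GB20 was compared with MOG to ask how the release genes of immunized mice differed after needling at GB20 under anaesthesia. A single member passed the test, Syt15, which fell by 0.56 on the log2 scale (SE 0.12, adjusted p = 0.0421), against a background of 0.24% of all genes, 0.142% for lower ones. All 3 GB20 libraries of Syt15 lay below the 3 MOG libraries. This comparison shares the MOG libraries with MOG vs SHAM, where the same gene had risen by 0.50, and the gene no longer passed without MOG replicate 1 (-0.46, adjusted p = 0.33), 2 (-0.64, adjusted p = 0.0737) or 3 (-0.58, adjusted p = 0.14), without GB20 replicate 1 (-0.51, adjusted p = 0.267), 2 (-0.64, adjusted p = 0.0602) or 3 (-0.54, adjusted p = 0.18), and without GV16 replicate 1 (-0.56, adjusted p = 0.0562).

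The 4 members that had fallen in MOG did not pass the test in GB20 vs MOG. Cplx1 stood at 0.12 (SE 0.11, adjusted p = 0.806), Vamp1 at 0.13 (SE 0.07, adjusted p = 0.655), Cplx2 at 0.18 (SE 0.09, adjusted p = 0.627) and Syt2 at -0.09 (SE 0.12). GB20 libraries of Vamp1 all lay above the MOG libraries, by a small margin, and those of Cplx1, Cplx2 and Syt2 overlapped MOG. Unc13a was at -0.29 (SE 0.08, adjusted p = 0.19) with GB20 libraries all below MOG, Bsn at -0.27 (adjusted p = 0.537) and Sncb at 0.18 (adjusted p = 0.566). With the length trend removed, Unc13a was at -0.22 and Bsn at -0.17. Of the 37 members, 17 were positive and 20 negative, with a median of -0.06 against 0.00084 for all genes.

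Needling at the control acupoint GV16 gave no call among the members in GV16 vs MOG with edgeR, nor with DESeq2 or limma, against 0.164% of all genes. Without the filter on low counts edgeR called Syt15 (-0.49, adjusted p = 0.0123). There were 2 members at an unadjusted p under 0.05, Syt15 and Unc13a, both lower, and 5.3% of all genes reached that level. Syt15 stood at -0.50 (SE 0.12, adjusted p = 0.15), with all GV16 libraries below all MOG libraries, and Unc13a at -0.17. Cplx1 stood at 59.6 ± 9.59 CPM in GV16 and 58.0 ± 6.17 CPM in MOG, and Vamp1 at 70.8 ± 3.88 and 68.8 ± 4.06 CPM (SD, n = 3). Cplx2 was at 0.18 (adjusted p = 0.957), with overlapping libraries.

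The needling sites were compared directly in GB20 vs GV16. No member passed, where 0.00546% of all genes did, and 2 members had an unadjusted p under 0.05, a level reached by 2.93% of all genes. These were Rims2 at -0.22 (SE 0.08) and Sv2b at -0.18 (SE 0.08), both with an adjusted p of 0.9999 and both with GB20 libraries all below GV16. Syt15, called in one needled group and not in the other, differed between them by -0.06 (SE 0.12), so a difference between the sites was not detectable for it.

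Each needled group was also set against SHAM, with the SHAM libraries shared by all 3 comparisons. GB20 vs SHAM gave 3 lower members, Cplx1, Vamp1 and Syt2, against 0.344% of all genes called and 0.18% called lower. GV16 vs SHAM gave 2 lower members, Cplx1 and Vamp1, against 0.656% and 0.432%. Cplx1 was at -0.79 in GB20 (SE 0.11, adjusted p = 0.00165) and -0.87 in GV16 (SE 0.11, adjusted p = 0.000546). Vamp1 was at -0.55 (SE 0.07, adjusted p = 0.000284) and -0.64 (SE 0.07, adjusted p = 2.93e-05). Their lower level in MOG was therefore also measured in both needled groups.

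Syt2 was at -0.57 in GB20 vs SHAM (SE 0.12, adjusted p = 0.0402) and at -0.34 in GV16 vs SHAM (adjusted p = 0.254). The GB20 call of Syt2 was lost without SHAM replicate 1 (-0.49, adjusted p = 0.253), SHAM replicate 3 (-0.58, adjusted p = 0.0672), MOG replicate 3 (-0.57, adjusted p = 0.0557), GB20 replicate 1 (-0.50, adjusted p = 0.256), GB20 replicate 2 (-0.57, adjusted p = 0.112) or GV16 replicate 2 (-0.57, adjusted p = 0.0504). Cplx2 was at -0.22 in both, without passing. Syt15 was at -0.06 and 0.01, within its spread. Syn1 was at -0.42 in GB20 (adjusted p = 0.0737) and -0.33 in GV16 (adjusted p = 0.154), and its libraries in both lay below all SHAM libraries. The median over the members was -0.11 in GB20 vs SHAM and -0.11 in GV16 vs SHAM, against 0.00085 and -0.0041 for all genes.

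**Figure D5:**
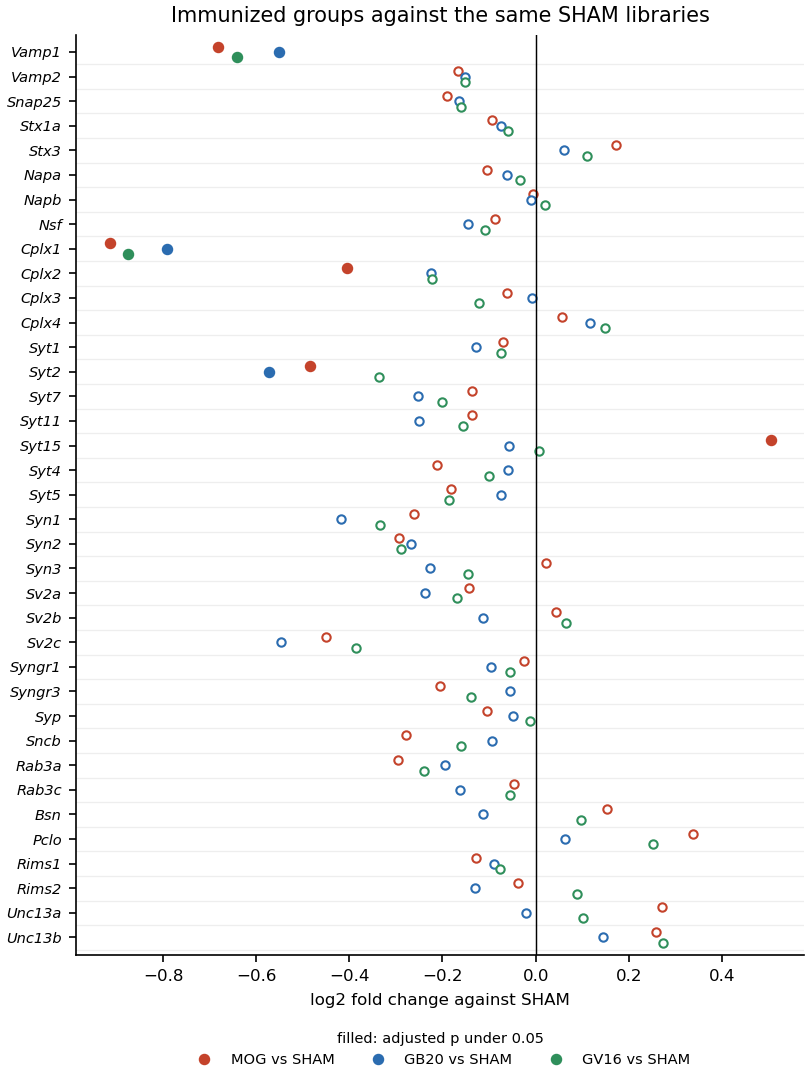
Log2 fold change of the 37 members in MOG, GB20 and GV16, each against the same 3 SHAM libraries and ordered by role. Filled points have an adjusted p under 0.05. Vamp1 and Cplx1 are filled in all 3 groups, and Syt15 is far from 0 in MOG alone.

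The release pathway beyond the members was represented by 102 other genes in 7 lists, of which 101 were tested. In MOG vs SHAM 4 of them fell and none rose, 3.96% of those tested, with a median log2 fold change of -0.02. They were Sncg, gamma-synuclein (-0.93, adjusted p = 0.000148), Slc17a6, the vesicular glutamate transporter VGLUT2 (-0.58, adjusted p = 0.0252), Atp6v1g2, a subunit of the vesicle proton pump (-0.39, adjusted p = 0.0138), and Cacna2d3, an accessory calcium channel subunit (-0.39, adjusted p = 0.016). No gene passed among 17 SNARE and priming partners, 9 further synaptotagmins, 15 active zone and ribbon genes and 25 endocytosis genes. None of the 101 passed in GB20 vs MOG or GV16 vs MOG, and Sncg and Slc17a6 were lower in GV16 vs SHAM.

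Markers of retinal cell types were measured beside these genes. The tissue label was checked with Gnat1, the rod transducin subunit, at 8992 to 11003 CPM in every library. Of 18 ganglion cell markers, among them Sncg and Slc17a6, 14 were lower in MOG vs SHAM, with a median of -0.86. The share of all genes called lower there was 0.771%. The study had reported some of these markers lower in the same libraries, among them Scn4b, Isl2, Pou4f1, Sncg and Tppp3. The count is therefore a description. The summed level of the 18 markers was 1203 to 1357 CPM in SHAM, 698 to 851 CPM in MOG, 830 to 865 CPM in GB20 and 683 to 954 CPM in GV16, and no marker was at 0 throughout. Against SHAM, 6 of the 18 were lower in GB20 (median -0.52) and 14 in GV16 (median -0.70). The share of all genes called lower was 0.18% in GB20 vs SHAM and 0.432% in GV16 vs SHAM. None of the 18 passed in the direct comparison GB20 vs GV16, with a median of 0.07. The sums of all 3 immunized groups lay below SHAM and overlapped each other, and none of the 18 passed in GB20 vs MOG or GV16 vs MOG. Among 12 amacrine markers only Calb2 was called in MOG vs SHAM, where it was lower (-0.71, adjusted p = 0.00306). The median of the 12 there was 0.03. Calb2 was also lower in GV16 vs SHAM (-0.61, adjusted p = 0.0177). None of 12 bipolar, 10 rod, 9 cone, 4 horizontal and 7 pigment epithelium markers passed in MOG vs SHAM. In GV16 vs SHAM the cone marker Opn1mw was higher (0.35, adjusted p = 0.0404) and the Müller cell marker Rlbp1 lower (-0.36, adjusted p = 0.0261). Of 10 microglial markers 3 were higher in MOG vs SHAM, with sums of 30.0 to 41.8 CPM in SHAM and 54.9 to 61.9 CPM in MOG. In the same comparison Aqp4 of 9 Müller cell markers (0.46) and Cnp of 4 tested oligodendrocyte markers (0.50) were higher. No lens or blood marker passed, but only 1 of 6 lens and 3 of 5 blood markers were tested. The summed lens level ranged from 1.03 to 9.47 CPM within SHAM. Aqp4 was lower in GB20 vs MOG (-0.35, adjusted p = 0.0293) and GV16 vs MOG (-0.34, adjusted p = 0.0472), as was Cnp (-0.58, adjusted p = 0.00767, and -0.70, adjusted p = 0.00218). These 2 glial markers were called in the same directions as Syt15 in MOG vs SHAM and GB20 vs MOG. Syt15 was not called in GV16 vs MOG. Aqp4 and Cnp were the only ones of their lists called in MOG vs SHAM. The median there was -0.04 for the 9 Müller cell markers and 0.22 for the 4 oligodendrocyte markers. Car14, another Müller cell marker, was higher in GB20 vs MOG (0.50, adjusted p = 0.0158) and GV16 vs MOG (0.50, adjusted p = 0.0202). The part of these shifts in the values of Cplx1, Vamp1, Cplx2, Syt2 and Syt15 was not tested.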

How the data were processed

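Retinal RNA of 12 libraries was sequenced after poly-A selection. Per the submitters' processing notes and the study's methods, the authors aligned reads to mm10 with HISAT2 2.0.5 and summarized them with featureCounts; the deposited counts are whole, unnormalized numbers. FPKM values were computed by the authors from those counts and the gene length. Annotation release, strandedness and the handling of multimapped reads: not given in the sources used here.

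Total counts ranged from 15860278 to 19194280 per library. The test was edgeR 4.0.16 under R 4.3.3 (filterByExpr, TMM scaling, robust quasi-likelihood, 1 mean per group over all 12 libraries, 8 residual degrees of freedom), and p-values were adjusted by Benjamini-Hochberg over all 18299 genes tested. A call was an adjusted p under 0.05. FPKM was used for levels between genes and for ratios. Names, positions and exon lengths came from GENCODE vM21. In data simulated for MOG vs SHAM with 200 genes changed by 1 on the log2 scale, 142 were called, with 3 false calls among 18030 genes. Every member changed by less than that in MOG vs SHAM (-0.91 to 0.50), and smaller changes were not simulated. Figures were drawn with matplotlib 3.10.9.

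The members, lists and tests were chosen with earlier results of these data known. Members called in any comparison are named with every library, their relatives with values, and other genes where they passed in a list. Unc13a, Rab3a and Sncb are given in more detail after their values were seen. DESeq2 1.42.0, limma 3.58.1 on log2(FPKM + 1), no filter, a length correction, a replicate block and leaving out each library were alternatives.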

Additional observations from a re-analysis of the deposited data

How the results depend on the processing

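The number of members called was recomputed under 23 alternatives for each comparison. The 11 called values kept their sign in every alternative, and 4 stayed called in all: Vamp1 against SHAM in each immunized group and Cplx1 in MOG vs SHAM. In MOG vs SHAM the count of 5 became 8 with DESeq2 on 12 libraries and 9 without the filter on low counts. DESeq2 on 12 libraries added Rab3a, Sncb and Unc13a, and dropping the filter added these and Unc13b. Rab3a was called in 6 of the 23 alternatives, and Sncb and Unc13a in 4 each, so their status depended on the setting. The count became 2, Cplx1 and Vamp1, with each of the 3 limma settings on FPKM, where Cplx2, Syt2 and Syt15 lost their calls. Syt2 was also lost with edgeR on 6 libraries (-0.48, adjusted p = 0.0708). Leaving out single libraries gave 2 to 7. In GB20 vs MOG the count of 1 became 2 with edgeR or DESeq2 on 6 libraries and 2 without the filter, 0 with each limma setting, and 0 to 1 without single libraries. In GV16 vs MOG 1 member was called without the filter and 0 without any single library. GB20 vs GV16 gave 0 throughout. In GB20 vs SHAM the count of 3 became 1 with limma without a filter and 2 to 4 without single libraries. In GV16 vs SHAM the count of 2 became 4 without the filter, 1 with limma without a filter and 2 to 3 without single libraries. The cause of these changes was not tested. Of 211 values not called, 12 were called in some alternative and 76 changed sign in some.

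Replicate numbers are shared by the groups, and the methods describe 3 repeats of the experiment, but the labels do not say that a number marks a shared repeat. Deviations of the 18 same-numbered pairs correlated between -0.09 and 0.35 (median 0.04), and 6 exceeded 0.1. The 36 differently numbered pairs correlated between -0.28 and 0.15 (median -0.03), and 3 exceeded 0.1. The main test did not use the numbers, because the labels name no pairing. If they do mark shared repeats, that test ignored a pairing. For 9 of 12 libraries the best correlated library had the same number, a hint from the data alone. With the replicate block 9 members were called in MOG vs SHAM, the 5 above with Rab3a, Sncb, Unc13a and Sv2c (-0.43, adjusted p = 0.0398). It gave 2 in GB20 vs MOG (Syt15 and Unc13a) and 5 in GB20 vs SHAM, which added Syn1 and Sv2c (-0.53, adjusted p = 0.0206).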
